A study of Bos taurus with 15 samples.

Results

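The genes described here encode parts of the axoneme, the microtubule shaft inside the sperm tail and motile cilia, together with the sperm associated antigens that share a name prefix. They were measured in bovine testis on Agilent oligonucleotide arrays, which give 1 brightness per probe. A probe was taken when its gene name, or the symbol in brackets in its description, started with DNAH, DNAI, DNAL, TEKT, RSPH or SPAG, or was CCDC39, CCDC40 or DNAJB13. This found 27 probes for 27 genes, of 15492 genes that could be named on the array, 3 through the gene name and 24 through the description. They are 8 axonemal dynein heavy chains, 2 intermediate chains, 1 light chain, 4 tektins, the radial spoke protein DNAJB13, both subunits of the axonemal ruler, 5 SPAG genes with a role in the axoneme and 4 SPAG genes with other roles. No gene with an RSPH symbol was found in this way, although 6 such genes were on the array under older or placeholder names. They are described after the rest.

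The 15 samples were testis RNA of 8 cattle given prednisolone, a synthetic glucocorticoid, and of 7 untreated control cattle. The dose was 30 mg per head daily by mouth for 35 days, and the tissue was collected at the slaughterhouse. The labels number the samples, which are taken here as 1 animal each: prednisolone 25 to 32, and control 17, 18 and 20 to 24. The labels give no breed or age, and the design text calls the treated animals cows although the tissue is testis.

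In the axoneme, rows of dynein motors stand in outer and inner arms along 9 doublet microtubules and make them slide against each other. Heavy chains are the motors, and intermediate and light chains hold them in their arms. Radial spokes link the doublets to a central pair of microtubules, tektins lie inside the doublet wall as filaments, and CCDC39 and CCDC40 form a ruler that sets the spacing of arms and spokes. In testis these genes are known for their use by meiotic and post-meiotic germ cells, which build the sperm tail.

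Levels are log2 processed signals relative to the 75th percentile of the same array, so 0 is the brightness of that percentile. A difference is the mean of the prednisolone animals minus the mean of the controls on that log2 scale, where 1 is a 2-fold difference. The brightness of a probe depends on the probe as well as on its RNA, so levels are compared between animals and not between genes. The 75th percentile of processed signal lay between 1220 and 2780 on 14 arrays and was 49.4 on the array of prednisolone 30. On that array 36.4% of probes were well above background, against 82.2% to 89.9% on the other 14. DNAJB13, well above background on 0 of 15 arrays, read -2.68 there and between -9.81 and -8.57 in the other prednisolone animals. On that array a level can thus be high on this scale without being well above background. Between the scanner file of prednisolone 30 and the column of the deposited table that bears its name, values centred per gene had a correlation of 0.0332 across probes, against 0.928 to 0.980 for the other arrays. Which of them is that animal's measurement was not settled, so the values printed for prednisolone 30 may not be its own. Results are therefore given with and without prednisolone 30. The array of control 17 also stood apart, for the genes described here and over all genes. Without prednisolone 30 it was the lowest of 14 arrays for 25.7% of all genes and the highest for 19.7%. Results without control 17 are given too. Of marker lists for cells of the testis, 22 of 24 spermatid, 17 of 17 spermatocyte, 16 of 16 Sertoli cell and 8 of 9 Leydig cell genes on the array were well above background on at least 7 arrays.

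Levels of every axonemal gene tested overlapped between the groups, and no difference passed the test. The differences ranged from -0.58 in SPAG1, a factor for the assembly of dynein arms, to 0.41 in DNAI2, a chain of the outer arm. Without prednisolone 30 they ranged from -0.38 in SPAG9 to 0.43 in SPAG4L, and SPAG1 and DNAI2 were at -0.30 and 0.014. A gene was tested where its probe was well above background on at least 7 arrays, which held for 26 of the 27 genes, and 19 of them were well above background on all 15 arrays. Another 5 (DNAH3, DNAH5, DNAH17, SPAG1 and SPAG17) were so on all arrays but that of prednisolone 30. With limma and Benjamini-Hochberg adjustment over all probes tested, 0 of 26 genes passed an adjusted p of 0.05, as did 0 of all 13857 genes tested (0%). Their adjusted p-values lay between 0.883 and 0.987. At an unadjusted p of 0.05 the count was 0 of 26, against 333 of 13857 genes (2.4%). It was 1 of 26 without prednisolone 30 (SPAG9; 4.14% of all genes), 1 without control 17 (SPAG9; 2.18%) and 3 without both (DNAH3, SPAG1 and SPAG9; 4.91%), and again none passed an adjusted p of 0.05. The difference was above 0 in 17 genes and below 0 in 9, with 51.8% of all genes above 0. Under median scaling and under quantile normalization the split was 13 to 13, with 43.8% and 40.7% of all genes above 0.

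The median difference over the 26 genes was 0.055, against 0.013 over all genes tested. Without prednisolone 30 it was 0.063, with 17 of 26 genes above 0 (52.3% of all genes), and without control 17 it was -0.060, with 10 of 26 genes above 0, against 50.2% of all genes. Without both animals it was -0.012, with 12 of 26 above 0 (51.4%). The half-width of the 95% interval of a gene's difference was 0.42 at the median, and ranged between 0.32 and 0.91. In 23 of the 26 genes the whole interval lay within a log2 difference of 1 in either direction, the exceptions being DNAI2, SPAG1 and SPAG17. The ranges of the 2 groups overlapped in all 26 genes, and 6 of all genes (0.0433%) had ranges that did not. In bulk tissue, fewer germ cells and less RNA per germ cell cannot be told apart.

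**Figure D1:**
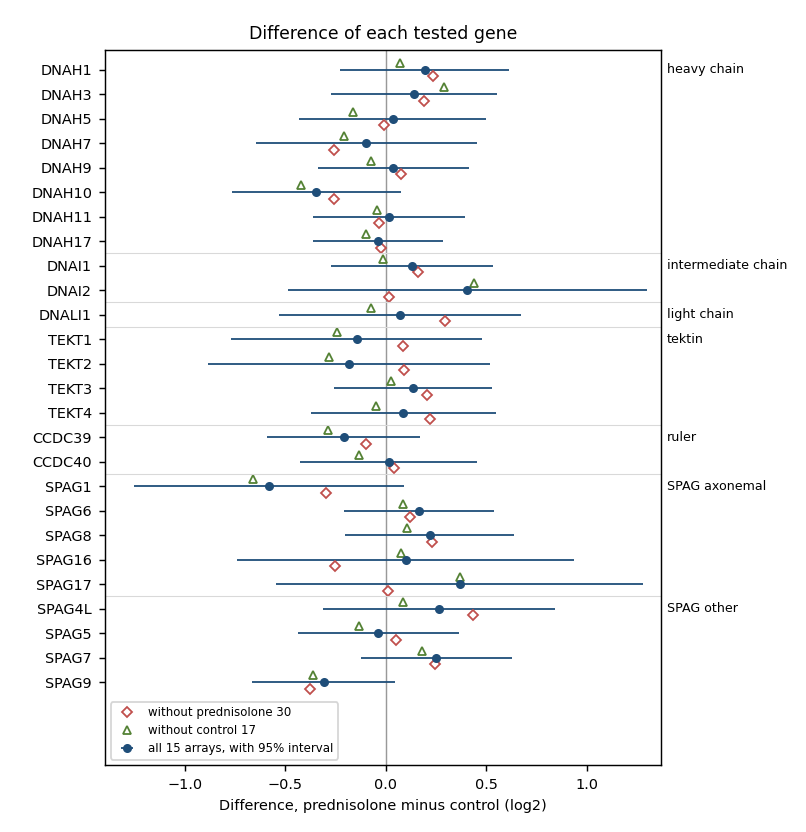
Difference between 8 prednisolone and 7 control animals for each of the 26 tested genes on the log2 scale, ordered by role. Filled points with bars are the limma estimate and its 95% interval on all 15 arrays, open diamonds leave out prednisolone 30 and open triangles leave out control 17. Every bar crosses 0, and leaving out either animal moves several points across 0.

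The symbols of 7 of the 8 heavy chains, all but DNAH1, rest on the array's description alone, since their probes were not matched to the table of bovine genes. Among the 8, 5 differences were above 0 and 3 below, with a median of 0.024. Without prednisolone 30 the split was 3 to 5 and without control 17 it was 2 to 6. DNAH10, a heavy chain of an inner arm, had the smallest p of the class. Its level had a lowest value of -0.44, a median of 0.15 and a highest value of 0.68 in prednisolone animals, against 0.066, 0.60 and 0.87 in controls. The lowest prednisolone value was that of prednisolone 30, and 2 of 8 prednisolone animals lay above the control mean. The difference was -0.35 ± 0.20 (SE, limma adjusted p = 0.883) and -0.26 without prednisolone 30.

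DNAH1, an inner arm heavy chain needed for sperm tails in human and mouse, had the largest positive difference of the class. Its levels in prednisolone animals were 1.86 at the lowest, 2.43 at the median and 2.82 at the highest, and in controls 1.46, 2.22 and 2.65. The lowest control was control 17, which lay below every other animal. The difference was 0.19 ± 0.20 (SE, limma adjusted p = 0.883), and 0.073 without control 17.

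DNAH3, an inner arm heavy chain, was the 1 gene of 26 in which control 17 was the highest of all animals, as it was for 19.7% of all genes, at -1.89. The other controls lay between -3.28 and -2.43, and the prednisolone animals between -2.98 and -2.28. The difference was 0.14 ± 0.20 (SE) on all arrays, and 0.29 without control 17. Without both control 17 and prednisolone 30 it was 0.34 (limma adjusted p = 0.932).

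The outer arm heavy chains DNAH5, DNAH9 and DNAH11, best known from airway cilia, had differences of 0.033, 0.038 and 0.015. DNAH17, the outer arm heavy chain of sperm in human and mouse, had a difference of -0.040 ± 0.15 (SE). DNAH7, an inner arm heavy chain, had a difference of -0.097 ± 0.26 (SE), and -0.26 without prednisolone 30, its highest animal at 2.98. In DNAH5 control 17 lay at -4.69, and the other 6 controls lay close together between -3.65 and -3.18. DNAH7 and DNAH9 each had a further probe that carried their symbol through the gene table, with differences of -0.26 and -0.37, and -0.12 and -0.039 without prednisolone 30. The 2 probes of DNAH9 differed in sign in both fits. Probe sequences were not used here, so cross-hybridisation between heavy chains was not tested.

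The intermediate chains DNAI1 and DNAI2 hold the outer arm on its doublet. DNAI1 lay between 0.25 and 0.87 in prednisolone animals (median 0.42) and between -0.56 and 0.91 in controls (median 0.46). Control 17 was its lowest animal, and the difference was 0.13 ± 0.19 (SE), or -0.014 without control 17. DNAI2 was well above background in 5 of 8 prednisolone animals and 3 of 7 controls. Its levels were -7.67, -7.03 and -4.02 (lowest, median, highest) in prednisolone animals and -7.82, -7.23 and -6.60 in controls. The highest was prednisolone 30, and the difference of 0.41 ± 0.42 (SE, limma adjusted p = 0.883) was 0.014 without that animal. On its array DNAJB13, which was well above background on no array, read -2.68. The lower reading of -4.02 for DNAI2 there may therefore not be a level of its RNA.

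DNALI1, a light intermediate chain of inner arms, had levels of -0.053, 1.65 and 2.03 in prednisolone animals, and 0.56, 1.55 and 2.16 in controls (lowest, median, highest). Prednisolone 30 was the lowest of all animals, while the other 7 prednisolone animals lay between 1.63 and 2.03, each above the control mean. The difference was 0.072 ± 0.28 (SE) on all arrays and 0.29 without prednisolone 30 (limma adjusted p = 0.98). Without control 17, the lowest control at 0.56, it was -0.073, and without both animals 0.15.

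The 4 tektins form filaments inside the doublet wall, and TEKT2, TEKT3 and TEKT4 are known from sperm tails in mouse. TEKT1 and TEKT2 had differences of -0.14 ± 0.29 and -0.18 ± 0.33, and TEKT3 and TEKT4 of 0.13 ± 0.19 and 0.087 ± 0.22 (SE). Without prednisolone 30 all 4 were above 0, at 0.087, 0.092, 0.20 and 0.22 in numerical order of the genes. Without control 17 they were -0.25, -0.28, 0.023 and -0.048, and without both animals -0.014, -0.0098, 0.092 and 0.086. The signs in TEKT1 and TEKT2 turned without prednisolone 30 and the sign in TEKT4 turned without control 17.

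TEKT1 had levels of -0.22, 1.58 and 2.01 in prednisolone animals and 0.94, 1.52 and 2.27 in controls (lowest, median, highest). TEKT2 had 1.97, 4.22 and 4.51 in prednisolone animals and 3.46, 4.08 and 4.63 in controls. TEKT3 had 2.56, 3.11 and 3.33 in prednisolone animals and 2.24, 2.85 and 3.49 in controls. In all 4 tektins control 17 was the lowest control and control 23 the highest, prednisolone 30 was the lowest prednisolone animal, and prednisolone 27 the lowest of the other 7. In the deposited table, whose column for prednisolone 30 does not follow its scanner file, the tektin differences were 0.083, 0.049, 0.15 and 0.23.

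**Figure D2:**
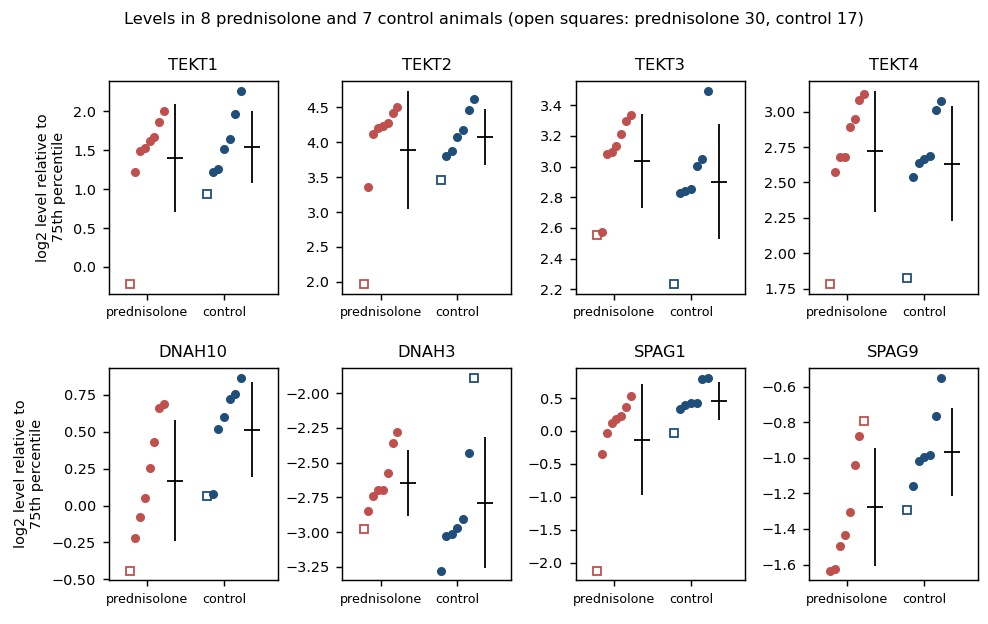
Log2 level relative to the array's 75th percentile in each of 8 prednisolone (left of each panel, red) and 7 control animals (right, blue), sorted within a group, for the 4 tektins, DNAH10, DNAH3, SPAG1 and SPAG9. Open squares are prednisolone 30 and control 17, and the cross with its bar is the group's mean ± SD. In the tektins both open squares lie at the bottom of their group, and in DNAH3 control 17 lies at the top.

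CCDC39 and CCDC40, the 2 ruler subunits, are needed for inner arms and for the spacing of the spokes. CCDC39 had levels of -0.55, 0.31 and 0.69 in prednisolone animals and -0.058, 0.50 and 0.67 in controls (lowest, median, highest). The level was under the control mean in 7 of 8 prednisolone animals, with overlap of the groups. Its difference was -0.21 ± 0.18 (SE, limma adjusted p = 0.883), and -0.10 without prednisolone 30. CCDC40 had a difference of 0.014 ± 0.21 (SE), and -0.13 without control 17, where its level was 0.49, against a median of 1.604 in the other controls.

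SPAG1 is a cytoplasmic factor for the assembly of dynein arms, and on all 15 arrays it had the largest difference of the 26 genes, which without prednisolone 30 was that of SPAG4L. Its levels were -2.12, 0.15 and 0.53 in prednisolone animals and -0.025, 0.42 and 0.81 in controls (lowest, median, highest). Prednisolone 30 was far below the rest, the next lowest was at -0.35, and 7 of 8 prednisolone animals lay below the control mean. The probe was well above background on every array except that of prednisolone 30, so the reading of -2.12 was not. The difference was -0.58 ± 0.32 (SE, limma adjusted p = 0.883), -0.30 without prednisolone 30 (limma adjusted p = 0.98) and -0.38 without control 17 as well (limma adjusted p = 0.932). In the deposited table it was -0.32 (limma adjusted p = 0.867).

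SPAG6, SPAG16 and SPAG17 are parts of the central pair apparatus, and SPAG8 lies inside the doublet microtubules. SPAG6 had levels of 2.79, 3.15 and 3.42 in prednisolone animals and 2.48, 2.98 and 3.61 in controls (lowest, median, highest), with a difference of 0.17 ± 0.18 (SE). SPAG8 had -0.32, 0.097 and 0.63 in prednisolone animals and -0.71, 0.031 and 0.56 in controls, with a difference of 0.22 ± 0.20. In both genes control 17 was the lowest animal, and without it the differences were 0.087 and 0.10. SPAG16 and SPAG17 had differences of 0.098 ± 0.40 and 0.37 ± 0.43, and -0.25 and 0.0090 without prednisolone 30, which was their highest animal. SPAG17 was not well above background on that array, and SPAG16 was well above background on 7 of 8 prednisolone arrays. The 2 spots of SPAG17 on an array differed by a median of 0.63, the largest such value among the 26 genes, whose median was 0.11.

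The 4 SPAG genes with other roles are not parts of the axoneme. SPAG9, a scaffold protein of JNK signalling that also binds microtubule motors, had the smallest p of the 26 genes. Its levels were -1.63, -1.37 and -0.80 in prednisolone animals and -1.30, -0.996 and -0.55 in controls (lowest, median, highest), and 6 of 8 prednisolone animals lay below the control mean. The difference was -0.31 ± 0.17 (SE, limma adjusted p = 0.883). Without prednisolone 30, its highest prednisolone animal, the difference was -0.38 (limma adjusted p = 0.98). In the deposited table the difference was -0.32 (limma adjusted p = 0.867). There SPAG1 and SPAG9 were the 2 of 26 genes under an unadjusted p of 0.05, a share that was 5.22% over all genes.

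SPAG4L, whose gene number now carries the symbol SUN5, links the sperm head to the tail in mouse and human. Its levels were -1.68, -0.38 and 0.049 in prednisolone animals and -1.82, -0.67 and -0.022 in controls. Prednisolone 30 and control 17 were each the lowest of their group, and 7 of 8 prednisolone animals lay above the control mean. The difference was 0.26 ± 0.27 (SE), 0.43 without prednisolone 30 (limma adjusted p = 0.98) and 0.087 without control 17. SPAG7 had levels of 3.77, 4.63 and 4.77 in prednisolone animals and 3.83, 4.27 and 4.64 in controls. All prednisolone animals but prednisolone 27 lay above the control mean, and the difference was 0.25 ± 0.18 (SE, limma adjusted p = 0.883). SPAG5, the spindle protein astrin, had a difference of -0.037 ± 0.19 (SE).

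DNAJB13, a protein of the radial spoke stalk, was well above background on 0 of 15 arrays and was not tested. The radial spokes are therefore represented here by genes that carry an RSPH symbol only through the table of bovine genes. RSPH1, RSPH4A, RSPH6A and RSPH9 belong to the spoke head and RSPH3 to the stalk. RSPH1 lay between 0.55 and 1.96 in prednisolone animals (median 1.83) and between 0.998 and 2.106 in controls (median 1.75), with a difference of -0.11 ± 0.23 (SE). RSPH6A, the spoke head form of sperm in mouse, lay between -0.91 and 0.20 in prednisolone animals (median -0.39) and between -1.27 and 0.28 in controls (median -0.25), with a difference of -0.036 ± 0.22 (SE). Without prednisolone 30 these 2 differences were 0.035 and -0.038. RSPH3 had a difference of -0.20, and 0.12 without prednisolone 30. RSPH9 and RSPH10B had differences of -0.029 and 0.22, and -0.37 and 0.073 without that array. RSPH4A was well above background on 10 arrays and had a difference of 0.60 ± 0.64 (SE), and 0.15 without it. The signs in RSPH1 and RSPH3 thus turned when prednisolone 30 was left out.

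The gene table also gave 9 further genes such symbols. DNAH8, an outer arm heavy chain of sperm in mouse and human, had a difference of -0.13 ± 0.21 (SE), and DNAH14 of -0.23 ± 0.18, which were -0.041 and -0.19 without prednisolone 30. DNAI3, DNAI4 and DNAI7 had differences of 0.13, 0.023 and -0.047, and the light chains DNAL1 and DNAL4 of -0.23 and -0.21. Without prednisolone 30 the 3 DNAI values were 0.028, -0.47 and -0.020, with the sign of DNAI4 turned, and the DNAL values -0.19 and -0.012. TEKT5, the tektin known from sperm in mouse, had a difference of 0.35 ± 0.27 (SE), and 0.11 without control 17. SPAG4, a SUN domain protein of spermatids in mouse, had the smallest p of the 15, with a difference of 0.34 ± 0.17 (SE, limma adjusted p = 0.883), and 0.21 without control 17. Over these 15 genes 6 differences were above 0 and 9 below, with a median of -0.036 and -0.19 without control 17, and 0 of 15 passed an adjusted p of 0.05.

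The same few animals held the lowest levels of many of these genes. The SD within a group, without prednisolone 30, was 0.36 at the median over the 26 genes and ranged between 0.24 and 0.53, against a median of 0.32 over all genes. Control 17 was the lowest of 7 controls in 21 of the 26 genes, and 34% of all genes had their lowest control there. It was the lowest of 14 animals, with prednisolone 30 left out, in 14 of 26 genes, against 25.7% of all genes. Its distance from the median of the other controls in those 21 genes was -0.74 at the median, and ranged between -0.305 and -1.47. The exceptions were DNAH3, DNAH17, DNAI2, SPAG16 and SPAG17. Control 24 was the second lowest control in 13 genes, and in 12 of these control 17 was the lowest. The share of all genes with control 24 second lowest was not taken, so this count has nothing to be set against. Control 23 was the highest control in 10 genes, against 19.6% of all genes, and the highest of 14 animals in 7, against 10.9% of all genes.

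Among the prednisolone animals other than prednisolone 30, prednisolone 27 was the lowest in 15 of 26 genes, against 24% of all genes. It lay -0.60 from the median of the other 6 prednisolone animals at the median over those 15 genes, in a range of -0.26 to -0.93. Prednisolone 30 was the lowest of 8 in 11 genes (43.1% of all genes), the highest in 6 (39% of all genes) and within the range of the other 7 in 9 (17.9% of all genes). In the deposited table its column was within the range of the others in 23 of 26 genes, as it was for 81.8% of the 12881 genes with a value in every column. Control 17 was there the lowest control in 18 of 26 genes, against 32.4% of those genes, and prednisolone 27 the lowest of 8 in 14, against 22.7%. On the arrays other than that of prednisolone 30 the table follows the scanner files, so it is no independent measurement of these animals.

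**Figure D3:**
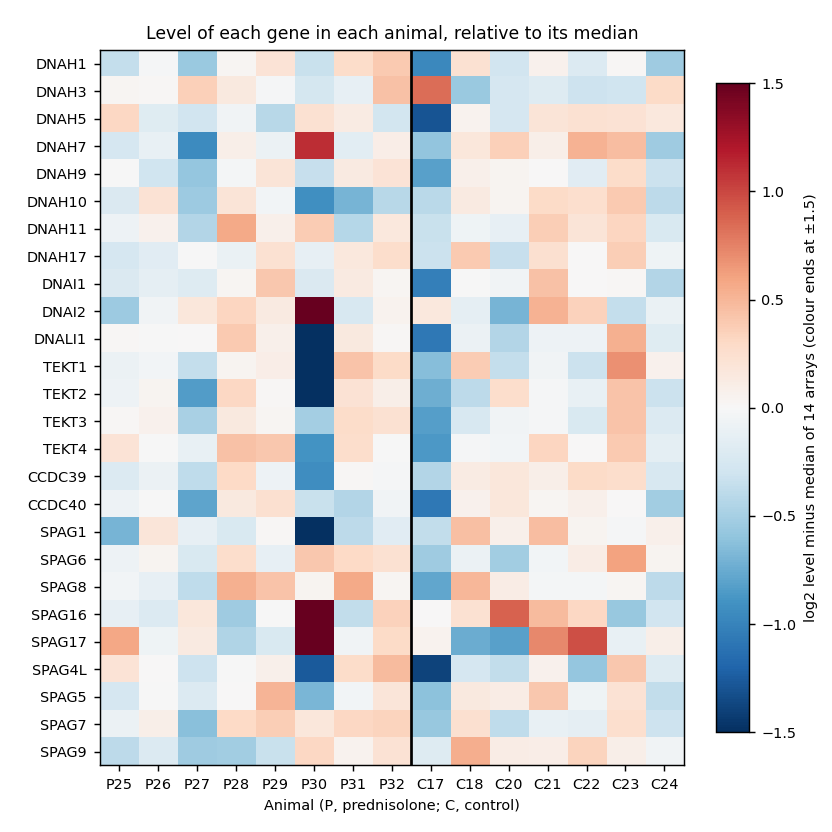
Log2 level of the 26 tested genes (rows, by role) in 8 prednisolone animals (left of the line, P25 to P32) and 7 controls (right, C17 to C24), as the distance from the gene's median over 14 arrays without prednisolone 30. Colours end at 1.5 in both directions. The column of control 17 is blue in most rows and red in DNAH3, and prednisolone 30 has both dark red and dark blue cells.

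The other lists of axoneme, cilium and dynein genes also had their lowest values of the controls in control 17, and of the prednisolone animals other than prednisolone 30 in prednisolone 27. The distance of a gene from its median over 14 arrays was taken in each animal, and a list is given by its median over genes. For the 22 tested axonemal genes it was -0.32 in prednisolone 27 and lay between -0.30 and 0.14 in the other prednisolone animals, while it was -0.62 in control 17 and lay between -0.22 and 0.27 in the other controls. In control 17 it was -0.77 for 36 genes of the central pair, the nexin links and the inside of the microtubules, -0.48 for 20 genes of arm docking and assembly, -0.46 for 25 genes of intraflagellar transport and -0.11 for 20 genes of cytoplasmic dynein. Spermatid and spermatocyte markers were at -0.87 and -0.58 in that animal.

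Markers of other cell types did not follow 1 pattern across prednisolone 27, prednisolone 30 and control 17. In prednisolone 27 every list given here lay above 0. The median distance of 10 peritubular and smooth muscle genes lay between -0.87 and 0.54 in prednisolone animals and between -0.35 and 1.44 in controls. The lowest of these values was that of prednisolone 30 and the highest that of control 17, and both arrays were low in the axonemal list. In prednisolone 27 it was 0.54. The endothelial list (10 tested genes) was at 0.35 in prednisolone 27, 1.51 in prednisolone 30 and 1.09 in control 17. All its genes but ENG were well above background on only 7 of 8 prednisolone arrays. The value of prednisolone 30 may therefore not be a marker level. The macrophage list (11 genes) was at 0.25, -0.56 and 1.32 in the same 3 animals, and the epididymal list (9 genes) at 0.16, 1.29 and 1.20. In control 17 these 4 lists were thus high where the axonemal list was low. Of the epididymal list, LCN9, ADAM28 and AQP9 were well above background on 0 arrays and were not tested. Its 9 tested genes include KRT5, KRT8, KRT19 and EPCAM. Whether epididymal tissue was in any sample was not tested. The lymphocyte list (10 genes) was at 0.50, 1.46 and 0.54 in prednisolone 27, prednisolone 30 and control 17, and control 17 was its highest control. In it CD3D, CD3E, CD3G, CD8A, MS4A1, GZMB and NKG7 were well above background on only 7 of 8 prednisolone arrays. So were RNASE10, RNASE12, CLDN10, PAX8 and MUC1 of the epididymal list. The values of prednisolone 30 in both lists may therefore not be marker levels either. Each other list given here also held such genes. The spermatogonial list (11 genes) was at 0.16, -0.49 and -0.25, and control 17 was its lowest control. The Sertoli cell list (16 genes) was at 0.60 in prednisolone 27, -0.40 in prednisolone 30 and 0.051 in control 17, and the Leydig cell list (8 genes) at 0.56, 0.55 and -0.040. In control 17 the Sertoli and Leydig cell lists lay within the range of the other controls. The part of these cells in the levels of the axonemal genes was not tested.

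**Figure D4:**
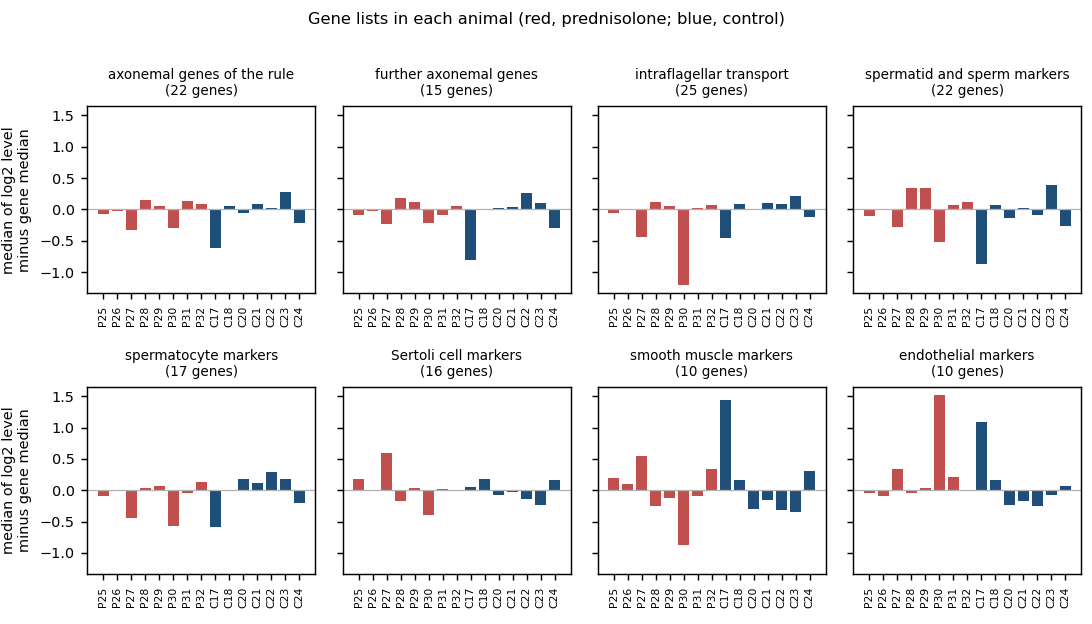
Median over the genes of a list of the log2 level minus the gene's median over 14 arrays, for each of 8 prednisolone animals (red, left) and 7 controls (blue, right), in 8 gene lists. Control 17 has the lowest bar among controls for the axonemal, spermatid and spermatocyte lists and the highest for smooth muscle and endothelial markers, and prednisolone 30 has a bar of -1.20 for intraflagellar transport.

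Between the groups, none of the other pathway lists held a gene that passed an adjusted p of 0.05 in the limma fit. The splits that follow give differences above 0 first and below 0 second. Over all genes the share above 0 was 51.8% on all arrays, 52.3% without prednisolone 30 and 50.2% without control 17. For 20 tested genes of arm docking and assembly the split was 11 to 9, with a median of 0.0079. It was 13 to 7 without prednisolone 30 and 8 to 12 without control 17, where the median was -0.053. The smallest p-values there belonged to RUVBL2, an ATPase of chaperone complexes, and DNAAF1, a dynein arm assembly factor. Their differences were 0.23 and 0.23, and 0.047 and 0.066 without prednisolone 30.

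For 36 genes of the central pair, nexin links and microtubule inner proteins the split was 22 to 14, with a median of 0.045. It was 26 to 10 without prednisolone 30 and turned to 12 to 24 without control 17, where the median was -0.047. MNS1, which lies inside the doublet microtubules and was the 1 gene of this list under an unadjusted p of 0.05, had a difference of -0.57 (limma adjusted p = 0.883), and -0.35 without prednisolone 30. NME7, also a microtubule inner protein, had a difference of 0.67 (limma adjusted p = 0.883), and 0.41 without prednisolone 30.

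Intraflagellar transport carries parts along the growing axoneme. The split of its 25 genes was 3 to 22, with a median of -0.17. Without prednisolone 30, in which the list stood at -1.20, the split was 11 to 14 and the median -0.022. Without control 17 the split was 0 to 25 and the median -0.26, and without both animals 6 to 19 and -0.095. IFT25 and IFT80 had the smallest p-values, with differences of -0.35 and -0.38, and -0.24 and -0.17 without prednisolone 30.

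For 20 genes of cytoplasmic dynein, the motor of transport in the cell body, the split was 8 to 12 and the median -0.047. It was 9 to 11 without prednisolone 30 and 4 to 16 without control 17, with medians of -0.0067 and -0.12. DYNC1I2, its intermediate chain and the 1 gene of this list under an unadjusted p of 0.05, had a difference of -0.33 (limma adjusted p = 0.883) and DYNC1LI2, a light intermediate chain, of -0.33. Without prednisolone 30 they were -0.29 and -0.21. For 9 tested transcription factors of ciliated and spermatogenic cells the split was 4 to 5, and 7 to 2 without prednisolone 30, 3 to 6 without control 17 and 1 to 8 without both. TAF7L and MYB had the smallest p-values, with differences of 0.35 and 0.27, and 0.11 and 0.0046 without that array.

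The arrays lay on 7 slides, of which 2 held both groups, and were scanned on 5 days, of which 1 held both. On slide 1, with prednisolone 25 and 26 and controls 17 and 18, the median difference over the 26 genes was 0.17, with 20 above 0 (52.8% of all genes). On slide 2, with prednisolone 29 and 30 and control 23, it was -0.30, with 8 above 0 (48.5% of all genes). Within scan day 1, with 6 prednisolone animals and 3 controls, it was 0.14, with 18 above 0 (53.2% of all genes). With slide as a block, where only slides 1 and 2 inform the difference, it was 0.054. With scan day as a block it was 0.14, the same estimate as within scan day 1, since only that day held both groups. The 2 slides gave medians of opposite sign, and slide 1 held control 17 and slide 2 prednisolone 30. In these limma fits, slide 2 with its 1 control left aside, 0 of all genes passed an adjusted p of 0.05. The 26 genes gave 0 values under 0.05 before adjustment. The share over all genes was 3.47% on slide 1, 0.852% within scan day 1, 1.78% with slide as a block and 1.72% with scan day as a block.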

How the data were processed

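Testis RNA of 8 prednisolone and 7 control animals was hybridised to 1-colour arrays. The deposited scanner files give intensity per spot from Feature Extraction 9.5.1.1, per the file headers, and the processed intensity combines scans at 2 sensitivities after background subtraction and detrending, per the design text. In a further table deposited by the authors, the intensity was already brought to a common level by a method not given in the sources used here. Per the submitters' processing notes R 2.11.1 was used. Control spots were left out, leaving 42990 spots of 21475 probes. Outlier spots were masked, spots of a probe averaged, and log2 values set relative to the array's 75th percentile. Probes well above background on at least 7 of 15 arrays were tested (18492), with limma 3.58.1 in R 4.3.3 (lmFit, eBayes, two-sided, Benjamini-Hochberg over all of them, threshold 0.05, no covariate). A gene was read through its brightest probe on average. Symbols came from the array's own annotation or from RefSeq names for the bovine assembly ARS-UCD2.0, which matched 20 of the 27 genes, 1 of the 8 heavy chains among them. No coordinates are printed, since the array's build was not stated. The number of arrays limits the precision, and p-values measure the spread between these samples.

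The genes and lists were chosen with earlier results of these data known. Every gene was named. Levels by group were required for the 6 smallest unadjusted p in each direction and the smallest in each class, since none passed the threshold, and from each other list the 2 smallest p were named. Levels of TEKT4, DNAH3, DNAH5, DNAI1 and the RSPH genes were added after their values were seen. The fit was tested on simulated data. Alternatives were other arrays, scalings, background correction, filters, spot masks, probe choice, batch blocks, array weights and the deposited table.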

Additional observations from a re-analysis of the deposited data

Results flagged for a closer look

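In 12 of 52 sets of values (26 genes in each of the 2 groups), 1 animal lay farther from its nearest neighbour than Dixon's 95% limit allows, against 2.6 sets by chance. The array of prednisolone 30, within the range of the other 7 prednisolone animals for 17.9% of all genes, gave 9 of the 12. Its level was the lowest of the prednisolone animals in DNALI1 (-0.053), SPAG1 (-2.12), SPAG4L (-1.68), TEKT1 (-0.218), TEKT2 (1.97) and TEKT4 (1.78). It was the highest in DNAI2 (-4.02), SPAG16 (-3.20) and SPAG17 (-3.53). SPAG1 and SPAG17 were not well above background on that array. DNAI2 and SPAG16 read lower there than DNAJB13 (-2.68), which was well above background on no array. Control 17 lay far below the other controls in DNAH5 (-4.69) and TEKT4 (1.83). Prednisolone 27 lay far below the other prednisolone animals in SPAG7 (3.77).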

How the results depend on the processing

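In all alternatives run, 0 of the genes described and 0 of all genes passed an adjusted limma p of 0.05. Over 30 alternatives, 677 of 773 values of the 26 genes kept their sign and 96 turned it, and SPAG1, SPAG7, SPAG8 and SPAG9 kept theirs in every one that gave a value. Among these, the fit with scan day as a block and the fit within scan day 1 give the same differences. The number of all genes with an unadjusted p under 0.05 was 333 on all arrays, 574 without prednisolone 30, 680 without control 17 as well, 723 in the deposited table, 75 under normexp, 871 with array weights, 205 with only probes well above background on all 15 arrays, 33 within slide 2, 118 within scan day 1 and 203 without control 22. Of the 26 genes, SPAG7 also came under that p without prednisolone 27 (2.78% of all genes) and SPAG9 without prednisolone 32 (2.35%). SPAG1 and SPAG9 did so with array weights (6.29%). Within slide 2, which holds 1 control, the median difference was -0.30 for the 26 genes, -0.31 for the axonemal ones, -0.36 for docking and assembly, -0.69 for central pair and nexin genes, -0.93 for intraflagellar transport and -0.35 for cytoplasmic dynein. The cause was not tested. With array weights the sign turned in CCDC40 (-0.010), DNAH11 (-0.092), DNAH5 (-0.16), DNAH9 (-0.016), DNAI1 (-0.050), DNAI2 (-0.13), SPAG16 (-0.34), SPAG17 (-0.11), TEKT1 (0.046) and TEKT2 (0.090). In the deposited table the sign turned in DNAH11 (-0.0035), DNAH5 (-0.042), SPAG16 (-0.21), SPAG5 (0.031), TEKT1 (0.083) and TEKT2 (0.049). Under median scaling the sign turned in CCDC40 (-0.042), DNAH11 (-0.041), DNAH5 (-0.023) and DNAH9 (-0.018). Under normexp the sign turned in CCDC40 (-0.023), DNAH17 (0.16), DNAH9 (-0.011) and SPAG5 (0.017). Under quantile normalization the sign turned in DNAH3 (-0.083), DNAH5 (-0.23), DNAI2 (-0.18) and SPAG16 (-0.16). With scan day as a block the sign turned in DNAH7 (0.089), DNALI1 (-0.028) and SPAG5 (0.036). With slide as a block the sign turned in DNAH3 (-0.0063), DNAH7 (0.041), DNAH9 (-0.011), DNALI1 (-0.18) and SPAG6 (-0.0040). Within scan day 1 the differences are by design those with scan day as a block, so the sign turned in DNAH7, DNALI1 and SPAG5 there too. Within slide 1 the sign turned in CCDC39 (0.016), DNAH10 (0.13), DNAH3 (-0.11), DNAH7 (0.036), DNAI2 (-0.31), SPAG16 (-0.28), SPAG5 (0.10), TEKT1 (0.062) and TEKT2 (0.55). Within slide 2 the sign turned in CCDC40 (-0.048), DNAH1 (-0.081), DNAH11 (-0.092), DNAH5 (-0.31), DNAH7 (0.048), DNAH9 (-0.35), DNALI1 (-1.33), SPAG4L (-0.99), SPAG6 (-0.46), TEKT3 (-0.67) and TEKT4 (-0.64). Without both control 17 and prednisolone 30 the sign turned in CCDC40 (-0.11), DNAH11 (-0.092), DNAH5 (-0.21), DNAH9 (-0.040) and SPAG16 (-0.28). With 1 animal left out in turn, the ranges of the differences that crossed 0 were CCDC40 -0.13 to 0.10, DNAH11 -0.061 to 0.084, DNAH17 -0.10 to 0.019, DNAH5 -0.17 to 0.087, DNAH7 -0.26 to 0.034, DNAH9 -0.076 to 0.11, DNAI1 -0.014 to 0.23, DNALI1 -0.073 to 0.29, SPAG16 -0.25 to 0.22, SPAG5 -0.14 to 0.052, TEKT1 -0.25 to 0.087, TEKT2 -0.28 to 0.092 and TEKT4 -0.048 to 0.22. The median over the 26 genes then ranged from -0.060 (without control 17) to 0.10. After the data were seen, the deposited table was also fitted without control 17 and without prednisolone 30, with medians of -0.0021 and 0.055 and 788 and 621 genes under that p. No paired analysis was possible because the groups share no animal numbers.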
